A study of Homo sapiens with 6 samples.

Results

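The leukocyte immunoglobulin-like receptors (LILR) are a family of surface receptors carried mainly by myeloid cells, and their genes lie in a cluster on chromosome 19 known as the leukocyte receptor complex. The 10 genes described here, 5 of the A class (LILRA1, LILRA2, LILRA4, LILRA5 and LILRA6) and 5 of the B class (LILRB1 to LILRB5), were taken by symbol from the 63236 genes of the table. They were chosen around LILRB2 because of its difference between the groups of these same libraries, so the values of LILRB2 are a description and carry no test. The samples were 6 RNA-seq libraries of FUJIOKA, a human acute myeloid leukaemia (AML) cell line, of which 3 carried a scrambled control shRNA (shNEG) and 3 an shRNA against SPINK2 (shSPINK2). SPINK2 encodes a small protein that inhibits serine proteases, and the comparison asked which transcripts differ when it is silenced. Both shRNAs were delivered by lentivirus in the Tet-pLKO-puro vector, from which doxycycline induces them, so the controls carried the vector, its puromycin resistance and a hairpin as well. The labels describe 2 shRNAs against SPINK2 without saying which was used in which library or how long the cells had been on doxycycline when RNA was taken, and the study's methods name only 1 of the 2. All libraries came from 1 cell line, and nothing says that those of a group were separate cultures, so the p-values measure the spread between these libraries, which may be technical.

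Receptors of the A class have short cytoplasmic tails and signal as activating receptors through the adaptor FcRγ (FCER1G), whose ITAM is phosphorylated by SRC family kinases and then recruits SYK. Receptors of the B class carry ITIMs in a long tail, which recruit the phosphatases SHP-1 (PTPN6) and SHP-2 (PTPN11) and restrain the cell. Several members of both classes bind MHC class I, and LILRB2 is also known as a receptor for angiopoietin-like proteins on haematopoietic stem cells and leukaemia cells. In the coding sequences of the annotation (GENCODE release 44, GRCh38), the residues after the most hydrophobic stretch of 21 residues numbered 7 to 32 in the A class and 111 to 169 in the B class. A search of these tails for the ITIM pattern gave 0 matches in each A receptor, 2 in LILRB2 and LILRB5, and 3 in LILRB1, LILRB3 and LILRB4.

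The windows around the transcription starts are shown for the 5 members in the test below, and for LILRA5, which had almost no reads, to show how alike these starts are. Windows of 300 bases, 250 before and 50 after a start, were found in the RefSeq-based table (GRCh38.p14) for 8 of the 10 members, 14 windows in all, and none was found for LILRA4 or LILRA6. Capitals mark GGGGAAGT or ACAGGAAG on either strand (ACTTCCCC and CTTCCTGT in reverse), and both runs were chosen after the windows had been read. Where a gene had several windows, the one shown was picked by these runs, so the likeness between genes holds for these windows and not for all starts of a gene. The 6 windows below are those of LILRB2 (chr19:54281061-54281360, minus strand), LILRA1 (chr19:54593382-54593681, plus), LILRB1 (chr19:54630234-54630533, plus), LILRA5 (chr19:54313117-54313416, minus), LILRA2 (chr19:54573540-54573839, plus) and LILRB3 (chr19:54222958-54223257, minus), each written 5′ to 3′ on the strand of the gene.
LILRB2: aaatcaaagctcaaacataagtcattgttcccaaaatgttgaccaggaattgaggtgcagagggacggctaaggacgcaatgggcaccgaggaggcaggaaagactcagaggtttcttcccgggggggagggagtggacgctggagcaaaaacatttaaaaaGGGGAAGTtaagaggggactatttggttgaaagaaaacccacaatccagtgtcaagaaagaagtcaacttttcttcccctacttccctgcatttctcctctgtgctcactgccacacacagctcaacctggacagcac
LILRA1: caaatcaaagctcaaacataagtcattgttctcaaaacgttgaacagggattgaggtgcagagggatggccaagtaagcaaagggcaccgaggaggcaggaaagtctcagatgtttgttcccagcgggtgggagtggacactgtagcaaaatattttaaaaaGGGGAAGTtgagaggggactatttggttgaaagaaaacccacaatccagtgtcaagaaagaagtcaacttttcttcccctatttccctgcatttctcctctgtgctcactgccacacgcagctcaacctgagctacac
LILRB1: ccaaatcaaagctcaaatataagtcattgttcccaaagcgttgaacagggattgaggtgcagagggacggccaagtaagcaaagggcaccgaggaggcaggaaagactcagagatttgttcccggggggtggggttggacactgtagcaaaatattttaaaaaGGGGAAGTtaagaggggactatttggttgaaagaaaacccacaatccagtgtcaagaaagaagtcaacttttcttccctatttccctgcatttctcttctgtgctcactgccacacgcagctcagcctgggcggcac
LILRA5: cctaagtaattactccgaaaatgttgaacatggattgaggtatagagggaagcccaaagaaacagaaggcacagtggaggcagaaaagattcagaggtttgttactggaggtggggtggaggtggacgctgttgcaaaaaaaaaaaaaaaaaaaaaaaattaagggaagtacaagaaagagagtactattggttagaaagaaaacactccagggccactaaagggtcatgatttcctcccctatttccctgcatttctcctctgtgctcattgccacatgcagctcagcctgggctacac
LILRA2: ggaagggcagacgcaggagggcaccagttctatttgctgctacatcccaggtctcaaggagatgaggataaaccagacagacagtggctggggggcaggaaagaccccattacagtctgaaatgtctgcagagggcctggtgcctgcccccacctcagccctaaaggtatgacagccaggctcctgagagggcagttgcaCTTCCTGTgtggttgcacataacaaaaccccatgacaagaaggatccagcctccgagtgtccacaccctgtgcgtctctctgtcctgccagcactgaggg
LILRB3: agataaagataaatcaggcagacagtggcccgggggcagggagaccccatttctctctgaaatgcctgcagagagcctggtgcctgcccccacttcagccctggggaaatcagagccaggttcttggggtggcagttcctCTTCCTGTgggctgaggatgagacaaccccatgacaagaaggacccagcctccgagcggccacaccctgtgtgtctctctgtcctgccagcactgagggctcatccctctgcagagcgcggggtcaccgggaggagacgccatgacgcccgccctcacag

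The windows of LILRB2, LILRA1 and LILRB1 were close copies, with identities of 90.5% between LILRB2 and either of the others and 93.7% between LILRA1 and LILRB1. That of LILRA5 had an identity of 70.8% to 71.9% to these 3 windows, and those of LILRA2 and LILRB3 had 50.6% to 54.8%. The identity of unrelated windows under this alignment was not measured. Other windows of LILRB2 and LILRA1, not shown or aligned here, hold long stretches that are also in the window of LILRA2. GGGGAAGT lay in 4 of the 14 windows, those of LILRA1, LILRB1 and LILRB2, and in 1.84% of the 35116 windows of the whole table. ACAGGAAG lay in 6 windows, those of LILRA1, LILRA2, LILRB3, LILRB4 and LILRB5, and in 2.99% of all windows. Overlapping windows of LILRB1 hold the same GGGGAAGT, and overlapping windows of LILRA2 the same ACAGGAAG, so both counts of windows include a repeat. Both runs hold the GGAA core that ETS factors bind. GAGGAA, the core of sites of the myeloid factor PU.1 (SPI1), lay in 4 of the 14 and in 27.9% of all windows. A match is a run of letters and not a measured site. ACAGGAAG was held by LILRB4 and LILRB5, with almost no reads, and also by LILRA2, the member with most reads. The windows of LILRA2 and LILRB3 held no GGGGAAGT. A link between these runs and the reads was not tested.

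Reads per library were worked out from the deposited mean of each gene together with the authors' fold change and its standard error, as described under processing, and the libraries of a group, whose replicate numbers are not known, are called a, b and c in the order of their size factors. SPINK2 itself had 53, 63 and 56 reads in shNEG a, b and c and 6, 9 and 7 in shSPINK2 a, b and c, a log2 difference of -2.83 (SE 0.26, limma with a mean trend, adjusted p = 3.85e-12). The deposited means summed to 38425214 reads over all genes, the average depth of a library, and the size factors ran from 0.985 to 1.03. The markers of AML blasts (5 of 8 with known reads) summed to between 6900 and 6947 in shNEG and between 6485 and 7064 in shSPINK2. Among them the mean normalized reads in shNEG and shSPINK2 were 2095 and 1592 for MPO, 2518 and 3100 for FLT3, 2290 and 2151 for CD38 and 25.3 and 13.8 for CD34, while KIT was near 0 (mean 0.666) and CD33 had a mean of 7777 by the authors. The summed markers of monocytes, from the 5 of 7 with known reads, ran from 4037 to 4283 in shNEG and from 5030 to 5184 in shSPINK2, while the defining markers CD14 (mean 2.83) and CD300E (0 reads) were at or near 0. The 5 markers of plasmacytoid dendritic cells summed to between 2657 and 2864 in shNEG and between 3170 and 3346 in shSPINK2. Markers of B cells (4 of 4) summed to 175 to 184 and 223 to 281 in the same order, those of T and NK cells (5 of 6, with KLRD1 and NCAM1 at 0 and without NKG7, whose mean by the authors was 5217) to 11 and 4.06 to 6.93, and those of erythroid cells and platelets (5 of 5, with HBB and PF4 at 0) to 28 to 39 and 40.6 to 54.5. The part of these marker levels in the differences below was not tested, and in bulk RNA more cells of a type and more RNA per cell cannot be told apart.

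All 5 LILR genes with a mean of at least 5 normalized reads were higher in the shSPINK2 libraries than in shNEG, from 1.26-fold (LILRA2) to 2.42-fold (LILRB3). The test was run over 15720 genes with a mean from 5 to 4000, and 5 members were below its lower limit. Besides LILRB2, the 4 members tested (LILRA1, LILRA2, LILRB1 and LILRB3) each had an adjusted p under 0.05 and were higher, where 24.3% of all genes in the fit were higher at that threshold and 25% were lower. With a log2 difference over 1 in addition, which 2.37% of all genes passed on the higher side, the members were LILRB3 and, by the contrast it was chosen on, LILRB2. Nothing is read from these shares, since the family was picked for its place in this contrast. The share of all genes whose groups do not overlap was counted only for means from 3 to 5. Non-overlap given below at other levels has no such share beside it. The median log2 difference over the 5 members was 0.63, against 0.0086 over all genes in the fit. The first value includes LILRB2 and leaves out the 5 members below the limit, so nothing is read from it either.

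**Figure D1:**
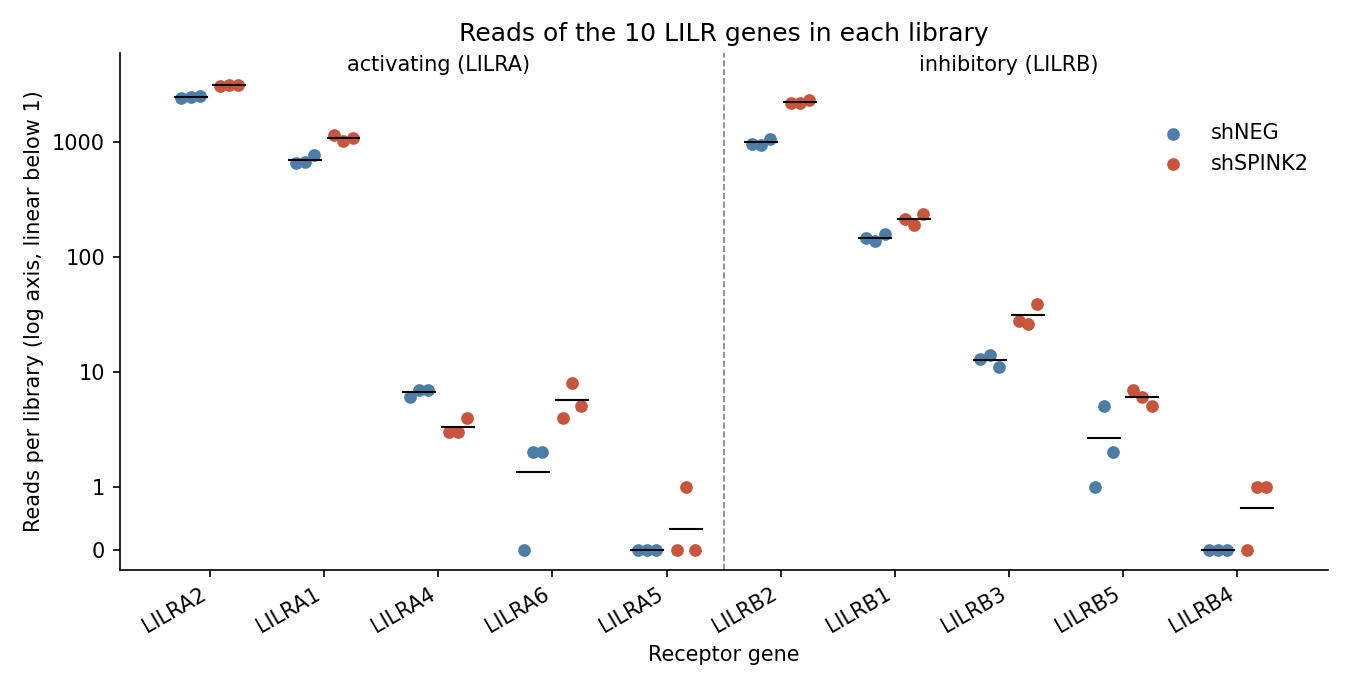
Reads of each LILR gene (y axis, log scale, linear below 1 read) in the 3 shNEG (blue) and 3 shSPINK2 (red) libraries, with the group mean as a bar. LILRA2, LILRA1, LILRB2, LILRB1 and LILRB3 are higher in every shSPINK2 library than in any shNEG library, LILRA4 is lower in each, and LILRA5 and LILRB4 have at most 1 read in a library.

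Among the activating receptors, LILRA2 was the most abundant. LILRA2 (ENSG00000239998.5, chr19:54572920-54590287, plus strand), which is known to sense immunoglobulins cut by microbial proteases, had 2410, 2494 and 2541 reads in shNEG a, b and c and 3102, 3187 and 3169 in shSPINK2 a, b and c. The groups did not overlap. In normalized reads this was 2480 ± 61.5 (SD, n = 3) against 3124 ± 49.5 (SD, n = 3), a 1.26-fold difference with a log2 difference of 0.33 (SE 0.045, adjusted p = 3.93e-08 by limma). It was the smallest log2 difference of the 5 members in the fit.

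LILRA1 (ENSG00000104974.11, chr19:54593582-54602381, plus strand), an activating receptor that binds MHC class I, had 662, 679 and 775 reads in shNEG and 1160, 1031 and 1098 in shSPINK2. The shNEG library with most reads, c, was still well below the lowest shSPINK2 library. The normalized reads were 705 ± 59.5 and 1087 ± 80.7 (SD, n = 3 each), a 1.54-fold difference with a log2 difference of 0.63 (SE 0.063, adjusted p = 4.13e-11 by limma).

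The other activating receptors were at the limit of detection. LILRA4 (chr19:54333185-54339162, minus strand), the ILT7 receptor by which plasmacytoid dendritic cells bind BST2, had 6, 7 and 7 reads in shNEG and 3, 3 and 4 in shSPINK2, and was the only member with fewer reads in every shSPINK2 library. LILRA6 (chr19:54236592-54242791, minus strand) had 0, 2 and 2 reads in shNEG and 4, 8 and 5 in shSPINK2, and LILRA5 (chr19:54307070-54313166, minus strand) had 1 read in shSPINK2 b and none elsewhere. Of the 3 members with means from 3 to 5 (LILRA4, LILRA6 and LILRB5), the groups did not overlap in LILRA4 and LILRA6, as in 19.4% of the 1652 genes at that level. With genes down to a mean of 0.5 in the fit, the log2 difference was -0.84 for LILRA4 (SE 0.45, adjusted p = 0.168 by limma) and 1.63 for LILRA6 (SE 0.54, adjusted p = 0.0174 by limma). The difference of LILRA6 rested on 4 reads against 17.

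Of the inhibitory receptors, LILRB2 carried most of the reads in every library. LILRB2 (ENSG00000131042.14, chr19:54273812-54281184, minus strand) had 966, 955 and 1076 reads in shNEG a, b and c and 2188, 2202 and 2324 in shSPINK2 a, b and c. Every shSPINK2 library held more than any shNEG library, and within a group the libraries were close. The normalized reads were 998 ± 65.1 and 2217 ± 34.1 (SD, n = 3 each), 2.22-fold, with a log2 difference of 1.15 (SE 0.052) that is given as a description because the family was chosen by it. By log2 difference LILRB2 ranked 253 of 15720.

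LILRB1 (ENSG00000104972.15, chr19:54617158-54638022, plus strand), which binds MHC class I and is carried by monocytes, B cells and some lymphocytes, had 147, 138 and 158 reads in shNEG and 213, 192 and 236 in shSPINK2. The groups did not overlap. The normalized reads were 148 ± 9.83 and 212 ± 19.5 (SD, n = 3 each), 1.43-fold, with a log2 difference of 0.52 (SE 0.10, adjusted p = 5.09e-05 by limma).

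LILRB3 (ENSG00000204577.11, chr19:54216278-54223506, minus strand) had 13, 14 and 11 reads in shNEG and 28, 26 and 39 in shSPINK2. This was a low level, at which shSPINK2 c stood above the other libraries of its group. The normalized reads were 12.7 ± 1.54 and 30.6 ± 6.30 (SD, n = 3 each), 2.42-fold, with a log2 difference of 1.20 (SE 0.27, adjusted p = 2.40e-04 by limma). RPS9, a ribosomal protein gene with a mean of 23201 by the authors, spans LILRB3 and LILRA6 on the opposite strand, and whether reads were counted by strand is not stated, so reads of the overlapping genes cannot be told apart.

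LILRB5 (chr19:54249421-54257301, minus strand) had 1, 5 and 2 reads in shNEG and 7, 6 and 5 in shSPINK2, and the groups overlapped at 5 reads. LILRB4 (chr19:54643889-54670359, plus strand), a receptor known from monocytes and monocytic AML, had 0 reads in the shNEG libraries and 0, 1 and 1 in shSPINK2. A count of 0 over the 3 shNEG libraries allows up to 3 reads, so no fold is given for LILRB4 or LILRA5. The table also held 36 further rows with members' symbols, from alternate versions of the locus, all with a mean of 0.

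**Figure D2:**
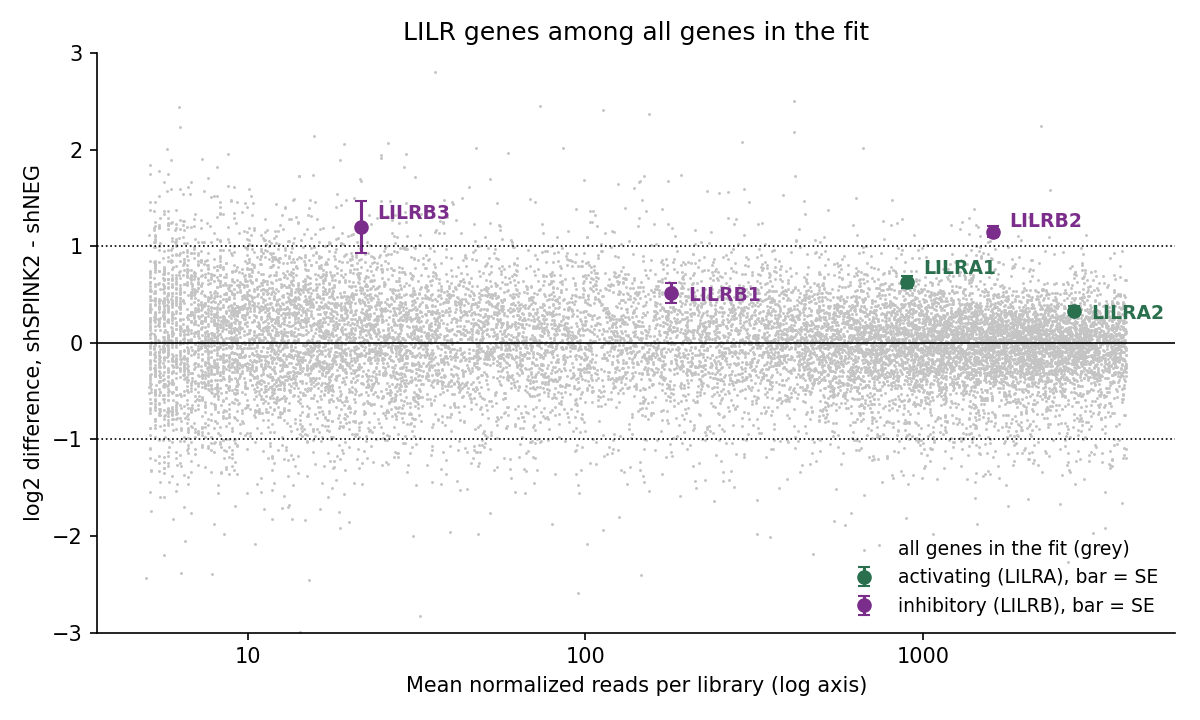
Log2 difference (shSPINK2 minus shNEG, y axis) against mean normalized reads per library (x axis, log scale) for all 15720 genes in the fit (grey) and the 5 LILR genes among them, with SE bars and dotted lines at log2 differences of 1 and -1; 3 genes lie beyond 3 on the y axis. LILRB2 (1.15) and LILRB3 (1.20) lie above the upper line, LILRA1 (0.63), LILRB1 (0.52) and LILRA2 (0.33) between it and 0.

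Levels of different genes were compared per kilobase of exon. In shNEG the order was LILRA2 (464 ± 11.5 normalized reads per kilobase, SD, n = 3), LILRB2 (261 ± 17.05), LILRA1 (182 ± 15.3), LILRB1 (26.8 ± 1.79) and LILRB3 (3.39 ± 0.41), with no overlap of neighbours within their SDs. In shSPINK2 the level per kilobase of LILRB2 (580.5 ± 8.93) lay within 1 SD of that of LILRA2 (584 ± 9.25). These levels divide by all annotated exons, 3819 bases for LILRB2 and 5349 for LILRA2. Their main transcripts have 2863 and 4482 bases, so which gene stands higher in shSPINK2 depends on the length used. The SD does not cover this. LILRA1 followed at 280.3 ± 20.8, LILRB1 at 38.5 ± 3.55 and LILRB3 at 8.20 ± 1.69.

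Summed with LILRB2, on which the family was chosen, the inhibitory class gained more than the activating class. Most of this gain lay in LILRB2. Summed over the class, the normalized reads were 3192 ± 118 in shNEG and 4220 ± 100 in shSPINK2 for LILRA (1.32-fold) and 1161 ± 71.9 and 2466 ± 58.8 for LILRB (2.12-fold; SD, n = 3 each). The LILRB share of all LILR reads was 26.8%, 25.9% and 27.3% in shNEG a, b and c and 36.3%, 36.5% and 37.9% in shSPINK2 a, b and c, a mean difference of 10.2 percentage points. Per kilobase of exon the share was 31.0% ± 0.71 and 42.0% ± 0.88 (SD, n = 3 each). Without LILRB2 the share was 4.86% ± 0.14 in shNEG and 5.57% ± 0.56 in shSPINK2, a difference of 0.71 points against a spread of 0.56 within shSPINK2, although the groups did not overlap. The share holds the gene the family was chosen on and carries no test.

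Ratios within a library, which do not depend on the scaling between libraries, are given for 4 pairs. LILRB2 had 0.38 to 0.42 reads for each read of LILRA2 in shNEG and 0.69 to 0.73 in shSPINK2. LILRA1 had 0.27 to 0.31 reads for each read of LILRA2 in shNEG and 0.32 to 0.37 in shSPINK2, with no overlap but a narrow gap. The ratio of LILRB1 to LILRA2 overlapped between the groups, at 0.055 to 0.062 and 0.060 to 0.074. So did that of LILRB1 to LILRA1, at 0.20 to 0.22 and 0.18 to 0.21. With 3 libraries against 3, an exact permutation test of such a ratio cannot give a p below 0.1.

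**Figure D3:**
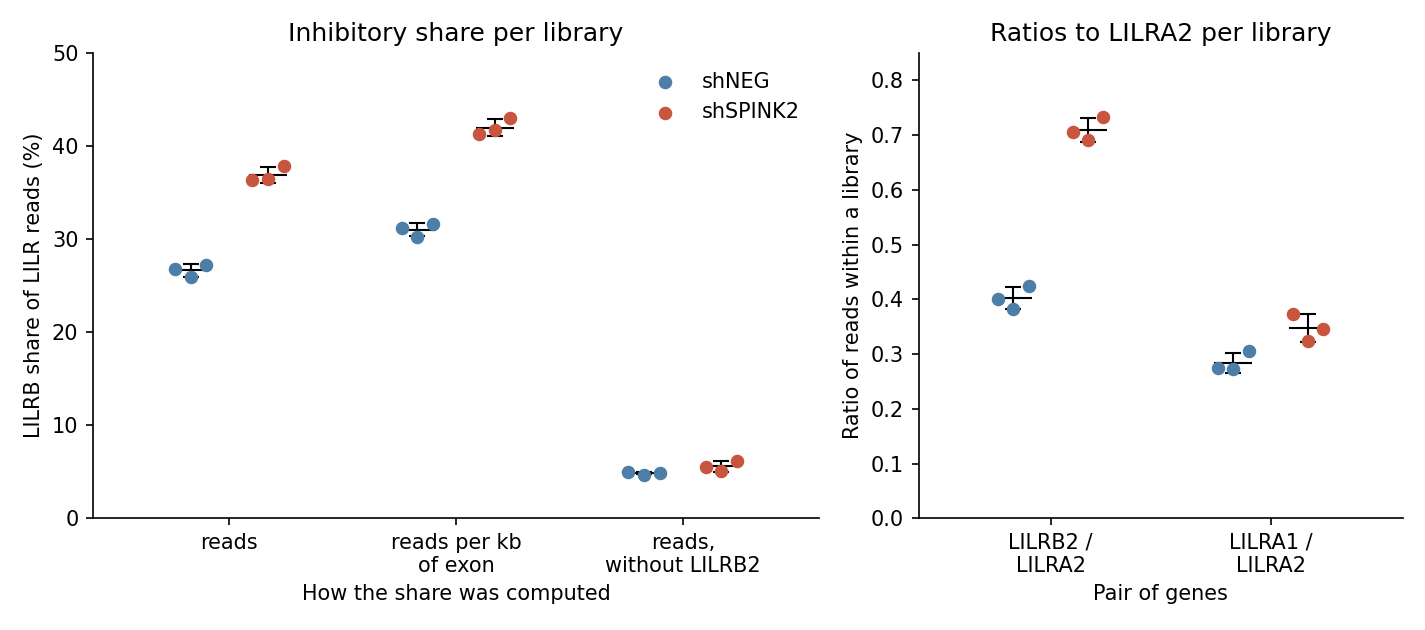
Left, LILRB share of LILR reads (%) per library, from reads, from reads per kilobase of exon and from reads without LILRB2; right, ratios of reads to LILRA2 within a library. Points are libraries (shNEG blue, shSPINK2 red) and bars are means with SD (n = 3); the share differs by 10.2 points between groups with LILRB2 and by 0.71 points without it.

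The listed signalling partners of the receptors lay on both sides of 0, and a link between them and the receptors was not tested. Of 15 listed genes 9 were in the fit, 6 were higher, 2 were lower and LYN was not called (log2 difference -0.04, adjusted p = 0.501 by limma, with the sign changing under another scaling). The median log2 difference was 0.17. Over all genes in the fit, 24.3% were higher and 25% were lower at the same threshold. The other 6 (SYK, CSK, PTPN6, PTPN11, INPP5D and CBL) had means above 4000, from 5259 for CBL to 17039 for SYK by the authors, and their reads were not worked out.

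FCER1G, the adaptor of the activating LILR, had 1145, 1269 and 1220 reads in shNEG and 1350, 1455 and 1423 in shSPINK2, a log2 difference of 0.21 (SE 0.053, adjusted p = 0.00114 by limma). TYROBP (DAP12), the adaptor of other activating myeloid receptors, had 858, 883 and 929 against 1703, 1529 and 1575 reads (log2 difference 0.83, SE 0.056, adjusted p = 4.43e-16 by limma). Neither overlapped between groups, and TYROBP was much further apart. Among SRC family kinases, FGR, which is typical of myeloid cells, had 653, 654 and 743 against 1350, 1338 and 1484 reads (log2 difference 1.01, SE 0.059, adjusted p = 3.77e-18 by limma). The more widely expressed FYN and SRC were lower, with log2 differences of -0.28 (adjusted p = 3.37e-06) and -1.08 (adjusted p = 1.38e-05, from 60.3 to 27.8 normalized reads), both by limma. The docking proteins DOK1, DOK2 and DOK3, which dampen signals of tyrosine kinases, had log2 differences of 0.13, 0.32 and 0.17. The call of DOK1 was lost without shNEG a (adjusted p = 0.071 by limma) or shNEG b (0.074).

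Of 22 listed ligands of the family, 9 were in the fit, of which 4 were higher, 4 lower and FN1 was not called. Among all genes in the fit, 24.3% were higher and 25% were lower. Semaphorin 4A (SEMA4A), described as a ligand of LILRB2, had 187, 185 and 207 reads in shNEG and 662, 620 and 659 in shSPINK2. The groups were far apart, with a log2 difference of 1.73 (SE 0.077, adjusted p = 1.10e-21 by limma). CD1D, a lipid-presenting molecule, had a log2 difference of 0.43 (SE 0.055, adjusted p = 1.54e-08 by limma), and the adhesion molecule ALCAM one of -0.51 (SE 0.048, adjusted p = 5.49e-12 by limma). The MHC class I genes HLA-B, HLA-C and HLA-E, with B2M, had means from 13751 to 86417 by the authors, above the limit to which reads were worked out. BST2, the ligand of LILRA4, had a mean of 8384 by the authors. The calls of the other 5 ligands each depended on single libraries. HLA-G (0.35) lost its call without shNEG c (adjusted p = 0.237), shSPINK2 b (0.127) or shSPINK2 c (0.0926), and OMG (0.51) without shNEG a (0.0522), shSPINK2 b (0.0837) or shSPINK2 c (0.10). HLA-F (-0.15) lost it without shNEG a (0.0717), shNEG b (0.0918) or shSPINK2 b (0.174), and CD1C (-0.91) without shNEG b (0.0987) or shSPINK2 a (0.0838). APOE (-0.65) kept its call only without shSPINK2 a, with adjusted p-values from 0.0689 to 0.226 when any other library was left out. HLA genes are near-identical in parts, and how reads that match several of them were counted is not stated.

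**Figure D4:**
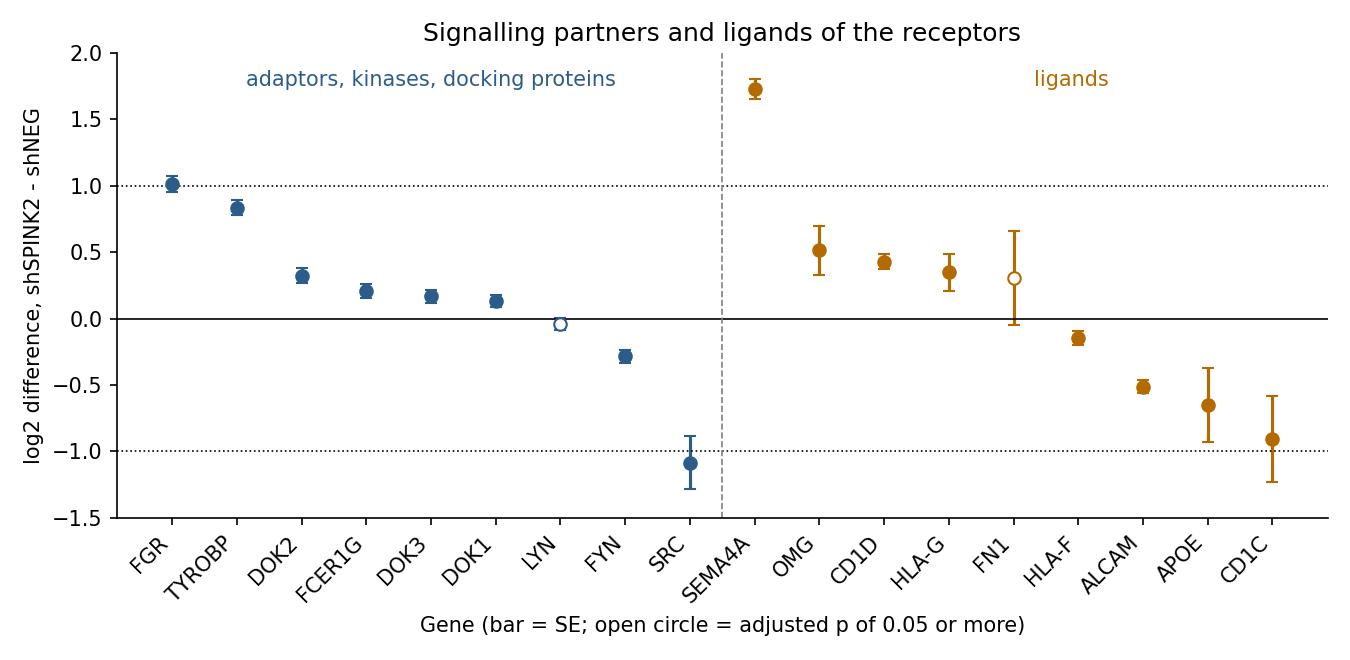
Log2 difference (shSPINK2 minus shNEG, y axis) with SE of the 9 signalling genes (blue) and 9 ligands (orange) in the fit, open where the adjusted p was 0.05 or more. FGR (1.01) and SEMA4A (1.73) lie above the dotted line at 1, and SRC (-1.08) lies below that at -1.

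Genes next to the family that were in the fit lay on both sides of 0, and a change of the whole locus was not tested. Of 25 listed genes of the leukocyte receptor complex and its flanks, 10 were in the fit. Of these, 3 were higher, 2 were lower and 5 were not called. Their median log2 difference was 0.27, against 0.0086 over all genes in the fit. The shares over all genes in the fit were 24.3% higher and 25% lower. The higher genes were OSCAR, an activating receptor of myeloid cells and osteoclasts that also uses FcRγ (0.55, SE 0.067, adjusted p = 5.01e-09 by limma), TSEN34 (0.52, SE 0.058, adjusted p = 5.64e-10) and TMC4 (1.35, SE 0.24, adjusted p = 9.63e-06). The splicing factor PRPF31 (-0.32, SE 0.053, adjusted p = 2.14e-06 by limma) and LENG1 (-0.24) were lower, the latter not without shNEG a (adjusted p = 0.149) or shSPINK2 b (0.0989). FCAR, the IgA receptor, had 90, 70 and 93 against 97, 83 and 80 reads (log2 difference 0.03, adjusted p = 0.873 by limma), and LAIR1 had a mean of 7257 by the authors. LAIR2 and TTYH1 were not called, but were without shSPINK2 b (adjusted p = 0.0317 and 0.0163). The pseudogene LILRP2 had 7, 9 and 4 against 15, 14 and 13 reads (log2 difference 1.01, SE 0.37, adjusted p = 0.0209 by limma), a call lost without shNEG c (0.122) or shSPINK2 a (0.0728). LILRP1 had 1, 3 and 4 against 7, 4 and 2 reads, and LILRA3 was listed at 0 in all of its 4 rows.

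**Figure D5:**
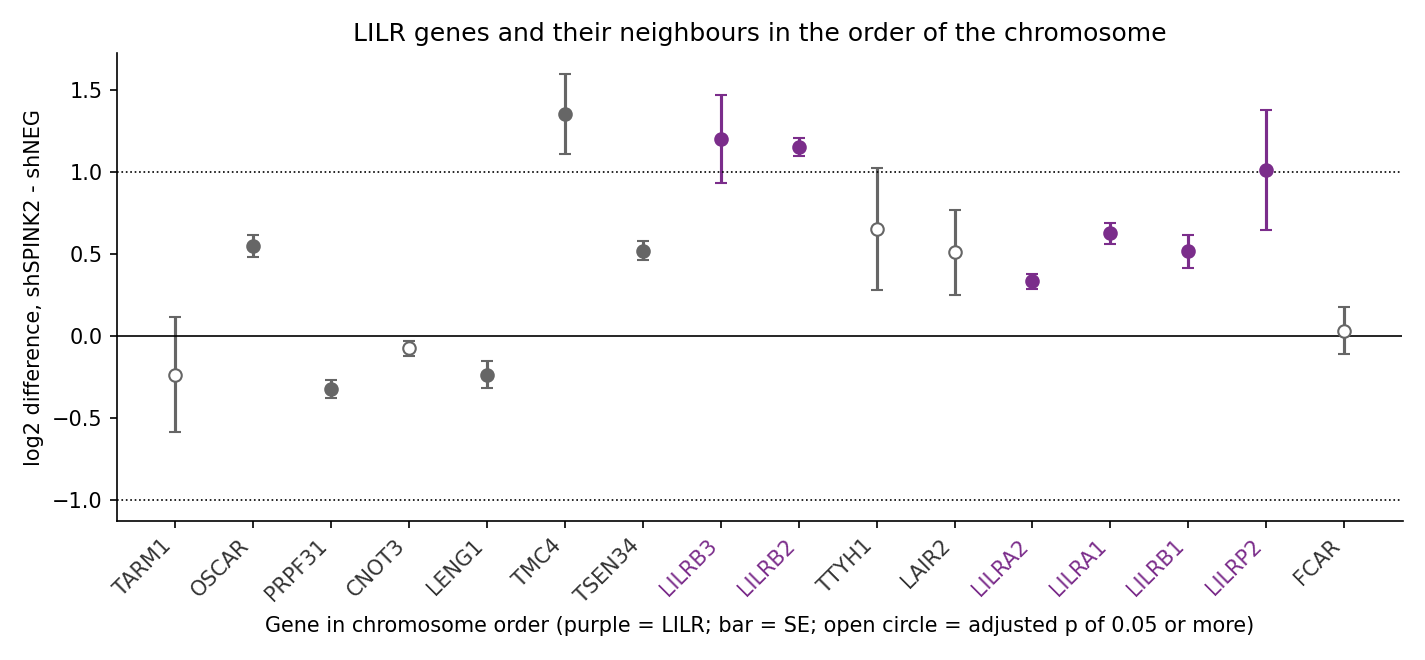
Log2 difference (shSPINK2 minus shNEG, y axis) with SE of the LILR genes (purple) and their listed neighbours (grey) in the fit, in the order of chromosome 19, open where the adjusted p was 0.05 or more. All LILR points lie above 0, from 0.33 (LILRA2) to 1.20 (LILRB3), while neighbours lie on both sides, from -0.32 (PRPF31) to 1.35 (TMC4).

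Other paired receptors of myeloid cells, which also come as activating and inhibitory forms, moved in both directions. Of 13 listed, 8 were in the fit, 4 were higher, 1 was lower and 3 were not called, with a median log2 difference of 0.08. All genes in the fit had shares of 24.3% higher and 25% lower. SIRPB2 rose from 976 to 1587 normalized reads (0.70, SE 0.054, adjusted p = 2.38e-14 by limma). The inhibitory receptors PILRA and CD300LF had log2 differences of 0.49 (adjusted p = 3.17e-07 by limma) and 0.30 (adjusted p = 7.97e-06 by limma). The inhibitory CD300A had one of -0.37 (adjusted p = 2.10e-06 by limma), so receptors of 1 class lay on both sides of 0. CD300C (0.89) lost its call without shNEG a (0.45, adjusted p = 0.191) or shSPINK2 c (0.73, adjusted p = 0.0738). Of 7 listed transcription factors of myeloid genes 2 were in the fit, CEBPE (log2 difference -0.05, adjusted p = 0.437 by limma, with the sign changing under another scaling) and IRF1 (0.02, adjusted p = 0.782 by limma). SPI1, CEBPA, IRF8 and RUNX1 had means from 9745 to 32858 by the authors.

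Members share stretches with each other, which bears on the count of reads. Of the 150-base windows of each member's main transcript, the share found unchanged in a transcript of another gene was 0% in LILRA1, 0.63% in LILRB1, 0.74% in LILRB2, 5.17% in LILRB3, 5.74% in LILRA6 and 16.1% in LILRA2. In LILRA2 these lay mainly in a noncoding gene that overlaps its 3′ end, ENSG00000269271, which had a mean of 0. LILRA4, near the limit of detection, had 11.5% at 150 bases. Over 50 bases the share rose to 35.0% in LILRA6, 29.9% in LILRB3, 23.0% in LILRA2, 16.45% in LILRB1 and 14.4% in LILRB2. It was 6.03% in LILRA1. LILRB1 and LILRB2 had 308 of these shorter windows in common. Without LILRA6 and LILRB3 the LILRB share of reads was 26.4% ± 0.73 in shNEG and 36.6% ± 0.79 in shSPINK2 (SD, n = 3 each).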

How the data were processed

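mRNA libraries from 6 FUJIOKA samples were sequenced (MGI G400, paired ends of 150 bases). For the authors' files, FastQC was used on the reads, STAR (2.7.11 in the submitters' processing notes) aligned to GRCh38, featureCounts gave counts per gene and DESeq2 (1.40.0) made the comparison. The annotation release, strandedness and treatment of multiply mapped reads are not given in the sources used here.

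The deposited table gives, per gene, a signal (the mean over 6 libraries of counts divided by size factors), the authors' log2 fold change and its standard error, a statistic, p-values and a status. No value of the comparison is reported. The authors' log2 fold change and standard error were, however, used as arithmetical constraints, with the mean, to work out the whole reads of each library, and the sign of the fold change of genes with 1 read gave the group of each library. The SPINK2 check is therefore not independent of the authors' labels. Of 23653 genes with means from 0.5 to 4000, 23559 (99.6%) were recovered, and genes with means above 4000 (2295) were not attempted. At the lowest means, genes were kept where the mean alone left 1 solution. At higher means the candidate with the nearest refitted fold change was taken, where the next was much farther away. In the test on known reads, 525 of 525 genes with means under 50 were exact, 256 of 256 at the next level, and at the highest level 159 of 218 were given and none was wrong. The highest level is that of LILRA2 and LILRB2. There the test gave a smaller share of genes than was recovered from the data, so its setting was not the same.

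Reads divided by size factors were tested with limma 3.58.1 (R 4.3.3) on log2(normalized reads + 1) with a mean trend, for means of at least 5, with Benjamini-Hochberg adjustment over 15720 genes and thresholds of adjusted p under 0.05 and absolute log2 difference over 1. Fold changes on this scale understate those of low genes. On simulated data for this comparison, 198 of 200 changed genes were found with 6 false calls. edgeR 4.0.16 was an alternative on the whole reads. Exon lengths came from GENCODE 44, which matched 98.9% of genes in the fit. Named genes were all members, SPINK2 and listed partners, ligands, neighbours, paired receptors, transcription factors and markers, apart from some listed genes that are not reported here. Members and lists were chosen with earlier results of these data known. Counting error is the least error of any value here, and PCR copies were not removed by molecular tags.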

Additional observations from a re-analysis of the deposited data

How the results depend on the processing

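LILRA1, LILRA2, LILRB1 and LILRB3 kept their direction and their side of the adjusted p threshold under other pseudocounts, filters, scalings, variance models, edgeR (chosen after seeing the data) and with each library left out; the log2 differences ran from 0.31 to 0.38 for LILRA2, 0.57 to 0.69 for LILRA1, 0.46 to 0.59 for LILRB1 and 1.05 to 1.31 for LILRB3, and from 1.12 to 1.21 for LILRB2, as a description. With the adjusted p alone, 4 members besides LILRB2 passed in place of 1 (5 in place of 2 with it), and 7744 genes in place of 882. edgeR called 924 genes. The difference in LILRB share fell to 0.71 percentage points without LILRB2. Signs changed only in genes that were not called: CEBPE (7.84e-05) and LYN (0.0095) when scaled by summed reads, and, with a library left out, LYN (-0.082 to 0.0060), FCAR (-0.094 to 0.11), FN1 (-0.015 to 0.77), IRF1 (-0.011 to 0.049) and TARM1 (-0.51 to 0.0074); the cause was not tested. Of 675 values of single genes under alternatives, 38 lost and 4 gained a call. No paired analysis was possible because the recovered libraries carry no replicate numbers. Members under 10 reads per library are limited by counting error.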
